A study of Mus musculus with 9 samples.

Results

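The 38 genes described here are expressed by white adipocytes or build, store and release triglyceride. They were chosen by gene symbol, with earlier results of these data known. All 38 were among the 52550 genes of the deposited count table. Of these 38 genes, 36 passed the filter on low counts and were tested among 13255 genes, and the exceptions were Gpam and Mogat1, enzymes that acylate glycerol phosphate and monoacylglycerol. RNA came from micromass cultures, dense spots of cells dissociated from forelimbs of day 12 mouse embryos and kept in a cartilage-promoting medium. Cultures were kept for 6 days with 100 µM Z-VAD-FMK (FMK), with 100 µM Q-VD-OPH (OPH), or with the vehicle DMSO alone, and each condition gave 3 libraries. Both inhibitors bind the active site of many caspases, the proteases of apoptosis, Z-VAD through a fluoromethyl ketone and Q-VD through a difluorophenoxymethyl ketone. The samples are labelled chondroblasts from limb, but a dissociated limb bud brings many cell types into the culture, and neither strain nor pooling of embryos was given. The labels call the replicates biological without saying whether libraries with the same number share a litter or a day.

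White adipocytes arise from mesenchymal progenitors when PPAR gamma (Pparg) and C/EBP alpha (Cebpa) switch each other on and then drive the genes of fat storage. The mature cell takes up fatty acids that lipoprotein lipase frees from circulating lipoproteins, or makes them from glucose through citrate and malonyl-CoA. It joins the fatty acids to glycerol phosphate and packs the triglyceride into a droplet coated by perilipins. Under fasting or beta-adrenergic signals, lipases release the stored fatty acids and glycerol, and at all times the cell secretes hormones such as adiponectin.

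Promoter windows of 5 genes are printed because these genes moved together and C/EBP and PPAR factors are known to act on adipocyte genes. Each window runs from 250 bases before to 50 bases after the transcript start, 5′ to 3′ on the gene's strand, from RefSeq on GRCm38.p6. Capitals mark matches to the C/EBP core TTGCNNAA on either strand. The windows lie at chr6:115421816-115422115 on the plus strand for Pparg (1 of its 3 listed windows), chr7:35119043-35119342 plus for Cebpa, chr16:23146286-23146585 plus for Adipoq, chr7:79732727-79733026 minus for Plin1 and chr6:113434715-113435014 minus for Cidec (1 of its 2 windows).
Pparg: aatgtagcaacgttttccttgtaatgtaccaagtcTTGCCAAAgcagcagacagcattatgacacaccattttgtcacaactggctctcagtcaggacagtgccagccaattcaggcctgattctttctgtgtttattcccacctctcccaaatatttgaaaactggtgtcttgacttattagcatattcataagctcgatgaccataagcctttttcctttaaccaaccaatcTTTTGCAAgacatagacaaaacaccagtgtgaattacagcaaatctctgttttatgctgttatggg
Cebpa: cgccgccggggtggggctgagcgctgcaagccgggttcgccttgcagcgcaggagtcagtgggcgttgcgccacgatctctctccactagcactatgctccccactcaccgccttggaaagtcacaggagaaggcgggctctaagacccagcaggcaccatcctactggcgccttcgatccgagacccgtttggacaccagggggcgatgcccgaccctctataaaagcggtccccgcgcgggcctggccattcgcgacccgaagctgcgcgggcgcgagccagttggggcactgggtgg
Adipoq: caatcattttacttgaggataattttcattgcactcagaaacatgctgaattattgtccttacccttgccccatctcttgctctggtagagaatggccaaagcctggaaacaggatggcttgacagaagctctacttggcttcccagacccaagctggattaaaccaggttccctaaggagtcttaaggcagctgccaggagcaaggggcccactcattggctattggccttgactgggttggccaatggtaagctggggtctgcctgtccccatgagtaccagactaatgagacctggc
Plin1: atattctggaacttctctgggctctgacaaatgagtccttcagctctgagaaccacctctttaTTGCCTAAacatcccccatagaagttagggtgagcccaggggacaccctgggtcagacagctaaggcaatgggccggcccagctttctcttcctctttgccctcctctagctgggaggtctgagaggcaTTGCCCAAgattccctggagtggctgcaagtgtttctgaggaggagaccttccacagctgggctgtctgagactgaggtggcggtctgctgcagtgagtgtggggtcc
Cidec: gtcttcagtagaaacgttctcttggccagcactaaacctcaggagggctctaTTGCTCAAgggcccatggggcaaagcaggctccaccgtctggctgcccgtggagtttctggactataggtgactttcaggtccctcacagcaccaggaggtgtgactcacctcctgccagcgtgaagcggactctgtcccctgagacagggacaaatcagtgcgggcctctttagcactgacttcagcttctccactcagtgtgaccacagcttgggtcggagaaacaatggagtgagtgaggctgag
In the Pparg window the matches began 215 and 16 bases before the start, in the Plin1 window 187 and 58 bases before, and in the Cidec window 198 bases before. The windows of Cebpa and Adipoq held none. Of the 38 genes, 27 had windows in the table, 40 windows in all, and 6 of the 27 genes had the C/EBP core in at least 1 window (Pparg, Plin1, Cidec, Ffar2, Gpam and Retsat), against 12.2% of all 27025 genes with windows. A direct repeat of 2 copies of AGGNCA with 1 base between them, the element known for PPAR gamma bound with RXR, was found in 0 of the 40 windows and in 0.381% of all 32851 windows. The sterol element TCACNCCAC was found in 1 member, Acsl1, against 1.44% of all genes, and the E-box CACGTG in 2, Ffar2 and Lipe, against 8.09%. All 4 motifs were searched on both strands, their matches could overlap, and a match only describes the letters in a window.

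Library totals ran from 5659789 to 6867350 counts, and a count stands for the 3′ end of a transcript. Levels are given as CPM, counts scaled to the TMM-adjusted library size. A list of 9 adipocyte markers, all among the 38 genes except Lep, summed to 63.8 to 103 CPM in FMK libraries, 463 to 2078 CPM in OPH libraries and 177 to 1542 CPM in DMSO libraries. Cidec and Lep were at 0 in FMK libraries, and Lep, which encodes leptin, had only 4 counts over the OPH libraries and 35 over the DMSO libraries. In bulk RNA, fewer cells of a type and less RNA per cell cannot be told apart. Macrophage markers summed to 37.6 to 56.3 CPM in FMK, 254 to 299 CPM in OPH and 1566 to 3029.8 CPM in DMSO libraries, with all 20 of 20 lower under each inhibitor. Cartilage markers summed to 1539 to 1644, 1491 to 2586 and 3014 to 4394 CPM in FMK, OPH and DMSO libraries, and 11 of 14 were lower in FMK and 6 of 14 in OPH than in DMSO. With the replicate number as a block in the fit, 12 of 14 cartilage markers were lower in FMK and 11 of 14 in OPH. Of all genes, 10.1% were lower in FMK and 8.11% in OPH, and 13.4% and 11.3% with the block. These shifts were measured in the same libraries, and their part in the results below was not tested.

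The fat genes were far less abundant in cultures with Z-VAD-FMK than in those with vehicle, while the levels with Q-VD-OPH overlapped those of the vehicle cultures. Summed over the 38 genes, the level was 886, 824 and 779 CPM in FMK libraries 1, 2 and 3, 4640.1, 5707 and 1794 CPM in OPH libraries 1, 2 and 3, and 4710.1, 4234 and 1281 CPM in DMSO libraries 1, 2 and 3. Every FMK sum was below every OPH and DMSO sum, and the third library was the lowest of its group in all 3 groups. The mean sums were 829.8 ± 53.4 CPM with FMK, 4047 ± 2023 CPM with OPH and 3408 ± 1858 CPM with DMSO (SD, n = 3 each).

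**Figure D1:**
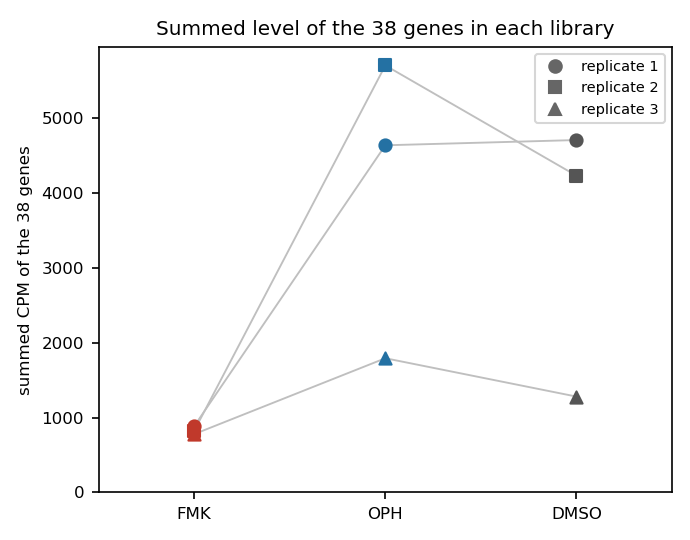
Summed level of the 38 genes in CPM (vertical axis, from 0) in each library of the FMK, OPH and DMSO groups (horizontal axis), with marker shape giving the replicate number. The FMK libraries lie between 779.3 and 885.7 CPM, and library 3 is the lowest of each group.

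In FMK against DMSO, cultures with Z-VAD-FMK were compared with vehicle cultures. Of the 36 genes tested, 18 were lower and 0 higher at an adjusted p under 0.05 (edgeR's quasi-likelihood test). The shares of all genes were 10.1% lower and 10.4% higher. None of the 36 was higher at an unadjusted p under 0.05 either. DESeq2 called 26 lower and 0 higher, and limma-voom called 3 lower and 0 higher. The median log2 fold change of the 36 genes was -2.87, against -0.0064 over all genes tested. It was also -2.87 with Cidec, which had no count in FMK, set to the bound that its floor allows. With the replicate number as a block, 25 of 36 were lower and 0 higher (13.4% and 13.4% of all genes), the 7 added being Retn, Cfd, Fabp4, Plin4, Cidec, Thrsp and Adrb3. FMK libraries did not overlap DMSO libraries for 24 of the 36, with 24 lower and 0 higher (18.1% and 17.4% of all genes). Compared between libraries of the same replicate number, 29 were lower in all 3 pairs and 0 higher in all 3 (27.1% and 26.2%).
Calls without the block depended on single libraries. Lower calls numbered 5 without FMK 1, 3 without FMK 2, 6 without FMK 3, 5 without DMSO 1, 5 without DMSO 2 and 23 without DMSO 3, and Cebpa, Slc2a4 and Ffar2 were the 3 genes called in each of these 6 fits.

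For OPH against DMSO, 0 of 36 genes were lower and 0 higher (8.11% and 8.61% of all genes), with 0 lower and 4 higher at an unadjusted p under 0.05. DESeq2 called 2 higher, Lpin1 and Fasn, and limma-voom called 0. The median log2 fold change was 0.23, against -0.0025 over all genes. With the block, 2 genes were lower (Retn and Cfd) and 5 higher (Cd36, Cidec, Lpin1, Acly and Me1), against 11.3% and 11.6% of all genes. The 95% interval of the log2 fold change in the blocked fit lay within -1 to 1, less than a 2-fold change either way, for 16 of the 36 genes, Pparg, Cebpa, Adipoq, Lpl and Plin1 among them. Without the block it did so for 8 of the 36, which included none of those 5 genes. For the other 20 genes the blocked interval reached past a limit. OPH and DMSO libraries did not overlap for 0 genes lower and 2 higher, Lpin1 and Me1 (17.1% and 16.6% of all genes), and within all 3 numbers 2 were lower, Cfd and Lpl, and 17 higher (26.5% and 25.9%).

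Both inhibitors were used at 100 µM for 6 days, so they could be set against each other directly. In OPH against FMK, 0 of 36 genes were lower and 12 were higher (4.66% and 4.2% of all genes), and with the block 0 were lower and 34 higher (8.36% and 7.78%), all but Pnpla2 and Scd1. At an unadjusted p under 0.05, 0 of 36 were lower and 36 higher, while DESeq2 called 0 lower and 33 higher, and limma-voom called 0 lower and 6 higher. The median log2 fold change was 2.84, against 0.0084 over all genes. OPH libraries lay wholly above FMK libraries for 34 of 36 genes (13.9% of all genes), the exceptions being Acly and Elovl6, and above the FMK library of the same number in all 3 pairs for 36 of 36 (23.8% of all genes). Without the block, higher calls numbered 4 without OPH 1, 5 without OPH 2, 18 without OPH 3, 5 without FMK 1, 2 without FMK 2 and 6 without FMK 3, with Me1 and Slc2a4 called in each of the 6. The comparisons of each inhibitor with DMSO share the DMSO libraries, so their values are given side by side only.

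**Figure D2:**
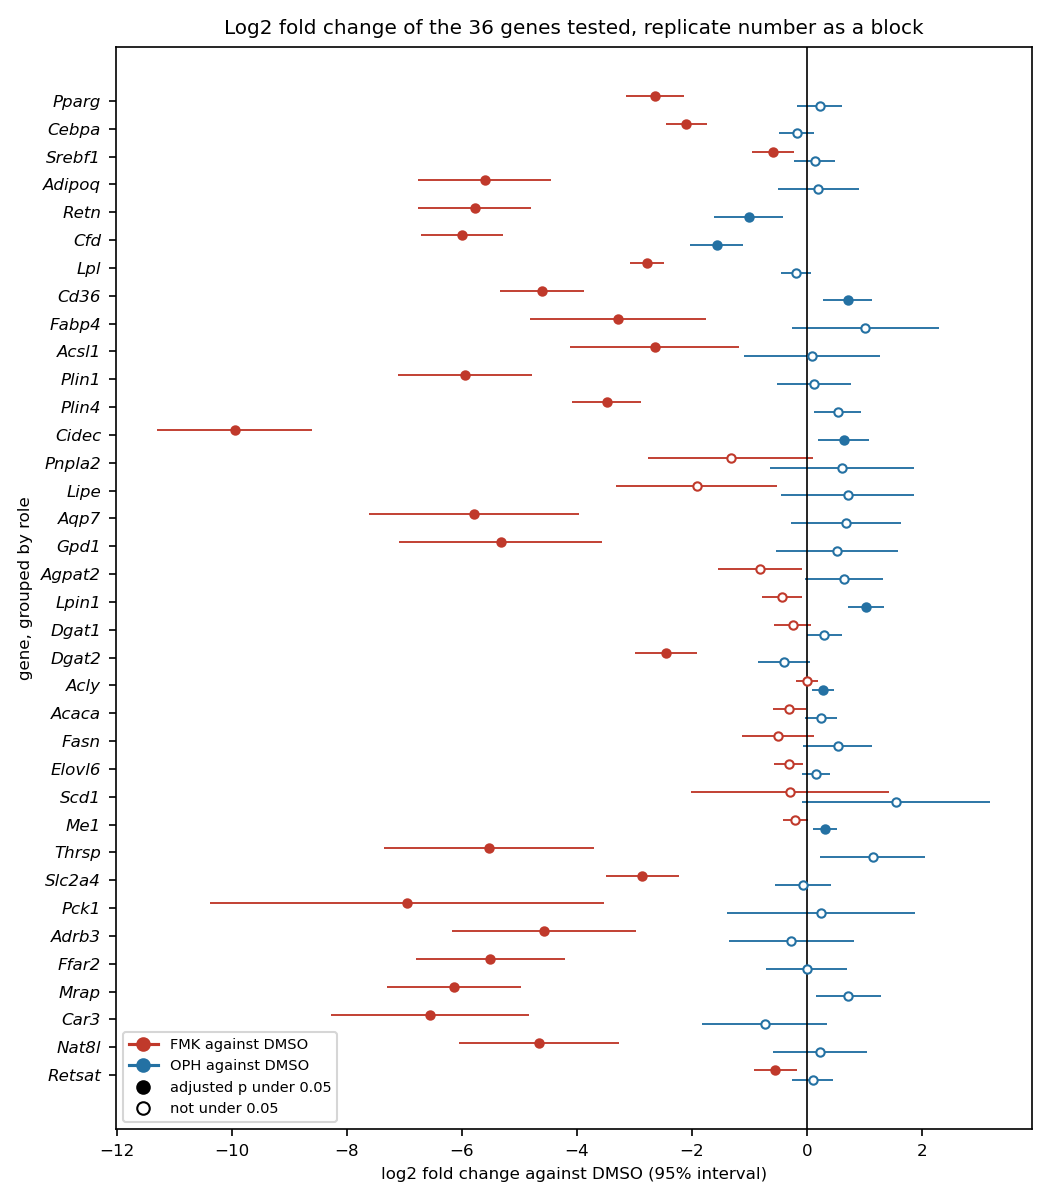
Log2 fold change with its 95% interval (horizontal axis) of the 36 genes tested, grouped by role (vertical axis), for FMK against DMSO in red and OPH against DMSO in blue, from the fit with the replicate number as a block. Filled points have an adjusted p under 0.05: 25 are filled for FMK, all below 0, and 7 for OPH, and the Cidec estimate for FMK rests on 0 counts and is not a measured size.

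Among the transcription factors, Pparg, the receptor that directs fat cell formation (chr6:115360951-115490399 in GENCODE M21), stood at 4.41, 4.34 and 3.13 CPM in the 3 FMK libraries, 35.5, 35.5 and 15.0 CPM in the OPH libraries and 37.6, 33.2 and 7.99 CPM in the DMSO libraries. All FMK libraries were below all others, and the OPH and DMSO ranges overlapped. Pparg fell in FMK against DMSO (log2 fold change -2.71 ± 0.71, SE, adjusted p = 0.0388), and its OPH to DMSO value was 0.22 ± 0.19 with the block (95% interval -0.17 to 0.61, and -1.25 to 1.52 without it). Cebpa, the partner that locks in the adipocyte programme, had 12.6, 18.9 and 14.5 CPM in FMK, 65.2, 72.8 and 38.9 CPM in OPH and 82.0, 83.6 and 37.2 CPM in DMSO libraries. It fell in FMK against DMSO by 2.13 on the log2 scale (adjusted p = 0.0106) and was higher in OPH than in FMK by 1.94 (adjusted p = 0.0308). Srebf1, which switches on the enzymes of fatty acid synthesis, moved less, with 43.1, 39.4 and 55.4 CPM in FMK, 81.3, 77.6 and 68.7 CPM in OPH and 84.3, 73.7 and 50.9 CPM in DMSO libraries. FMK library 3 lay above DMSO library 3, so the FMK and DMSO ranges overlapped, and the fall in FMK was -0.60 ± 0.18 (adjusted p = 0.0272).

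Of the secreted proteins, Adipoq, which encodes the insulin-sensitising hormone adiponectin, had 2.29, 3.88 and 1.84 CPM in FMK libraries, 177, 215 and 39.9 CPM in OPH libraries and 210.3, 185 and 20.8 CPM in DMSO libraries. The DMSO mean of 139 ± 103 CPM was 52.0-fold the FMK mean of 2.67 ± 1.07 CPM (SD, n = 3 each), and Adipoq fell in FMK with a log2 fold change of -5.66 ± 1.33 (adjusted p = 0.0294). In OPH the 95% interval against DMSO was -0.50 to 0.90 with the block and -2.11 to 2.22 without it. Cfd, which encodes the complement protease adipsin, had 0.817, 3.10 and 0 CPM in FMK, 35.2, 46.2 and 3.64 CPM in OPH and 145, 109.5 and 7.27 CPM in DMSO libraries. In each of the 3 numbers FMK was lowest and DMSO highest, but across numbers the OPH and DMSO ranges overlapped. Cfd missed the threshold in FMK against DMSO without the block (adjusted p = 0.0574) and passed with it (-6.00 ± 0.33, adjusted p = 3.06e-09). In OPH against DMSO the value was -1.61 ± 1.16 without the block (adjusted p = 0.445) and -1.57 ± 0.21 with it (adjusted p = 7.88e-05). Retn, which encodes resistin, a hormone made by mouse adipocytes, ordered the groups the same way in numbers 1 and 2, at 0.327, 0.465 and 0 CPM in FMK, 13.0, 7.82 and 1.58 CPM in OPH and 34.1, 15.3 and 1.45 CPM in DMSO libraries. OPH library 3 stood marginally above DMSO library 3, and with the block Retn was lower in OPH than in DMSO (-1.01 ± 0.29, adjusted p = 0.0108, against 0.560 without it). Cfd and Retn were the only members lower in OPH than in DMSO in that fit.

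**Figure D3:**
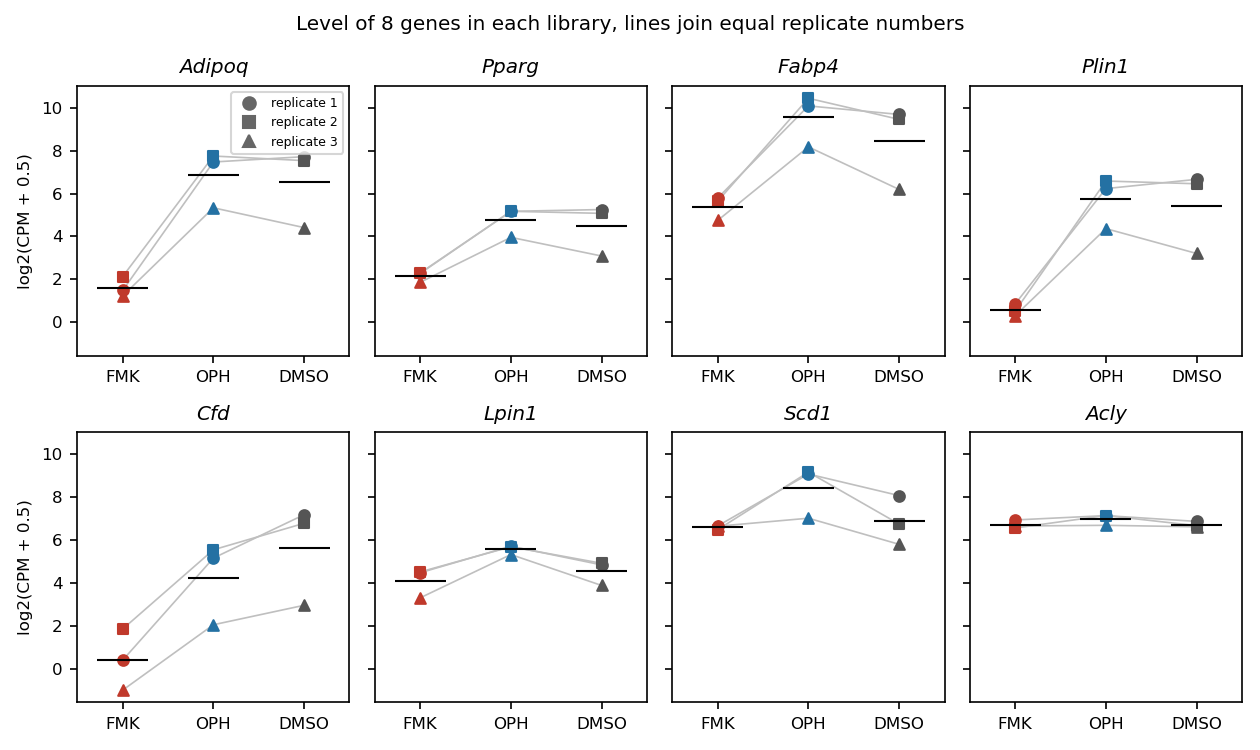
Level of 8 genes in each library as log2(CPM + 0.5) (vertical axis, shared) for FMK, OPH and DMSO (horizontal axis), where lines join equal replicate numbers and black bars are group means of the plotted values. Adipoq, Pparg, Fabp4 and Plin1 are low in every FMK library, Cfd is lowest in FMK and highest in DMSO within each number, Lpin1 and Scd1 are highest in OPH, and Acly stays between 93.9 and 141 CPM in all 9 libraries.

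Of the 4 genes of fatty acid supply, 3 fell in FMK without the block and 4 with it. Lpl, the lipase that frees fatty acids from lipoproteins, had 117, 122 and 65.1 CPM in FMK, 752, 863 and 299 CPM in OPH and 989, 904 and 320.5 CPM in DMSO libraries. Lpl fell in FMK against DMSO (-2.86 ± 0.62, adjusted p = 0.0219) and its 95% interval for OPH against DMSO was -0.46 to 0.07 with the block and -1.59 to 1.18 without it. Fabp4, the fatty acid carrier of the adipocyte cytoplasm, had 54.7, 49.5 and 26.3 CPM in FMK, 1087, 1392 and 289 CPM in OPH and 825, 703 and 72.5 CPM in DMSO libraries. The 3 FMK libraries lay below the lowest DMSO library, but the spread of DMSO left the adjusted p at 0.0630 without the block and 0.0171 with it. Cd36, a fatty acid transporter also made by macrophages, had 0.980, 1.24 and 1.84 CPM in FMK, 70.4, 76.9 and 16.8 CPM in OPH and 46.8, 42.4 and 10.5 CPM in DMSO libraries. OPH exceeded DMSO in each number, by 0.71 ± 0.20 on the log2 scale with the block (adjusted p = 0.0178, 0.583 without it). The macrophage markers were lower in OPH than in DMSO, and their part in the Cd36 level was not tested. Acsl1, which activates fatty acids by joining them to CoA, fell in FMK to 16.2 ± 2.73 CPM, against 114 ± 74.4 CPM in DMSO (SD, n = 3 each, adjusted p = 0.0462).

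Of the 3 lipid droplet genes, 1 fell in FMK without the block and 3 with it. Cidec, which fuses droplets into the single large one of white fat, had no count in any FMK library, 39.9, 33.6 and 9.02 CPM in OPH libraries and 35.8, 20.5 and 3.05 CPM in DMSO libraries. Set against a floor of 3 counts over the FMK group, its level was at least 116-fold lower in FMK than in DMSO and at least 169-fold higher in OPH than in FMK. Its adjusted p for FMK against DMSO was 0.0886 without the block and 5.57e-12 with it. Plin1, the coat protein that guards the droplet from lipases, had 1.31, 0.930 and 0.736 CPM in FMK, 74.6, 95.4 and 20.1 CPM in OPH and 101, 87.3 and 8.72 CPM in DMSO libraries. Plin1 fell in FMK against DMSO (-6.01 ± 1.44, adjusted p = 0.0313). Plin4, a perilipin of small new droplets, had 2.78, 1.71 and 0.368 CPM in FMK, 29.9, 39.7 and 7.75 CPM in OPH and 28.6, 23.1 and 4.07 CPM in DMSO libraries, with adjusted p = 0.0815 for FMK against DMSO without the block and 5.36e-11 with it.

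Of the 3 genes of triglyceride release, 1 fell in FMK against DMSO with and without the block, the glycerol channel Aqp7, and its difference from the lipases was not tested. Pnpla2, which encodes the first lipase of the pathway (ATGL), had 16.8, 24.2 and 25.9 CPM in FMK, 111, 133 and 39.2 CPM in OPH and 82.5, 77.4 and 24.6 CPM in DMSO libraries. FMK library 3 exceeded DMSO library 3 slightly, and the log2 fold change of -1.46 ± 0.64 did not pass in FMK against DMSO (adjusted p = 0.184, and 0.165 with the block). Lipe, the hormone-sensitive lipase, had 15.4, 22.6 and 17.3 CPM in FMK, 136, 188 and 46.8 CPM in OPH and 104, 113 and 19.5 CPM in DMSO libraries, and its log2 fold change of -2.09 ± 0.82 in FMK against DMSO did not pass in either fit (adjusted p = 0.140, and 0.0640 with the block). Lipe passed with DESeq2 (adjusted p = 0.0247), where Pnpla2 did not (adjusted p = 0.0671). In libraries 1 and 2 alone both lipases were lower in FMK than in DMSO, Pnpla2 by 1.96 and Lipe by 2.51 on the log2 scale (adjusted p = 4.80e-08 and 1.38e-05). Aqp7, the channel that lets glycerol out of the cell, had 1 count over the FMK libraries, 133 over the OPH libraries and 75 over the DMSO libraries. The DMSO to FMK ratio of its pooled counts was 69.2 (exact 95% interval 12.1 to 2771, counting error only), and Aqp7 fell in FMK (adjusted p = 0.00769).

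Triglyceride assembly divided into genes that fell with FMK and genes that did not pass. Gpd1, which makes glycerol phosphate from a glycolytic intermediate, had 3.43, 1.71 and 2.21 CPM in FMK, 147, 212 and 41.0 CPM in OPH and 154, 149.5 and 13.5 CPM in DMSO libraries, and fell in FMK (-5.42 ± 1.36, adjusted p = 0.0364). Dgat2, an enzyme of the last acylation step, averaged 6.70 ± 0.702 CPM in FMK, 28.5 ± 10.7 CPM in OPH and 39.3 ± 21.5 CPM in DMSO libraries and also fell in FMK (-2.54 ± 0.58, adjusted p = 0.0227). Dgat1, the unrelated enzyme of the same step, averaged 25.5 ± 1.27 CPM in FMK, 37.8 ± 8.50 CPM in OPH and 30.8 ± 8.48 CPM in DMSO libraries, with a 95% interval of -0.70 to 0.16 for FMK against DMSO. The difference between the changes of Dgat2 and Dgat1 was not tested. Agpat2, which adds the second fatty acid, had 34.5, 38.9 and 34.8 CPM in FMK, 113, 151 and 53.0 CPM in OPH and 83.7, 75.6 and 38.2 CPM in DMSO libraries. Over the 9 libraries Agpat2 did not pass against DMSO for either inhibitor. With libraries 1 and 2 alone it was lower in FMK (-1.12, adjusted p = 1.74e-05) and higher in OPH (0.73, adjusted p = 0.00113) than in DMSO. Lpin1, the phosphatidate phosphatase that yields diacylglycerol, had 21.7, 22.3 and 9.38 CPM in FMK, 51.9, 51.0 and 39.6 CPM in OPH and 28.2, 29.7 and 14.2 CPM in DMSO libraries. All 3 OPH libraries were above all DMSO and FMK libraries, and OPH against DMSO gave 0.99 ± 0.35 without the block (adjusted p = 0.107) and 1.03 ± 0.15 with it (adjusted p = 6.19e-06). Gpam stayed at or below 1.60 CPM in all 9 libraries and Mogat1 at or below 0.484 CPM, too few counts to compare.

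Most enzymes that make fatty acids from citrate did not pass. Of the 7 genes of fatty acid synthesis, 0 passed in FMK against DMSO, and with the block 1 did, Thrsp. Acly, which cleaves citrate to acetyl-CoA, had 122, 93.9 and 100.2 CPM in FMK, 140.5, 141 and 103 CPM in OPH and 116, 101 and 97.7 CPM in DMSO libraries, and its 95% interval for FMK against DMSO was -0.27 to 0.28. A 2-fold change of Acly lay outside that interval, and likewise outside the intervals of Acaca (-0.62 to 0.04), which makes malonyl-CoA, Elovl6 (-0.62 to 0.04), which lengthens palmitate, and Me1 (-0.43 to 0.04), a source of NADPH. Fasn, the fatty acid synthase, had 70.1, 61.4 and 76.3 CPM in FMK, 149, 195 and 95.9 CPM in OPH and 99.4, 108 and 89.5 CPM in DMSO libraries, with FMK below and OPH above DMSO in each number. Neither difference from DMSO passed with edgeR over the 9 libraries (adjusted p = 0.188 for FMK and 0.157 for OPH). Both passed with DESeq2 (adjusted p = 0.0422 and 0.0259) and with edgeR in libraries 1 and 2 alone (0.00134 and 6.33e-04). Fasn was higher in OPH than in FMK (1.08 ± 0.24, adjusted p = 0.0301). Scd1, which desaturates stearate, had 100.5, 88.8 and 99.5 CPM in FMK, 539.9, 574 and 129 CPM in OPH and 269, 107 and 55.2 CPM in DMSO libraries. DMSO library 1 stood well above the other DMSO libraries, and Scd1 passed in no comparison with edgeR, with or without the block. All OPH libraries lay above all FMK libraries for Scd1, and OPH against FMK passed with DESeq2 (adjusted p = 0.0364). Thrsp, a regulator of lipogenesis in fat and liver, had 3 counts over the FMK libraries, all in library 3, with 16.3, 39.0 and 3.96 CPM in OPH and 11.7, 12.3 and 1.45 CPM in DMSO libraries, and the adjusted p for FMK against DMSO was 0.0878 without the block and 3.44e-04 with it. Against DMSO with the block, Me1 (0.32 ± 0.10, adjusted p = 0.0251, 0.0592 without it) and Acly (0.28 ± 0.09, adjusted p = 0.0311, 0.161 without it) were higher in OPH.

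The remaining genes serve glucose use, signalling and other adipocyte functions. Slc2a4, the insulin-regulated glucose transporter GLUT4, had 2.61, 1.24 and 2.57 CPM in FMK, 13.8, 20.0 and 10.9 CPM in OPH and 18.7, 18.2 and 10.5 CPM in DMSO libraries. It fell in FMK against DMSO with the smallest adjusted p of the 36 genes (-2.88 ± 0.35, adjusted p = 9.57e-06), and for OPH against DMSO its interval without the block was -0.67 to 0.52. Pck1, whose enzyme supplies glycerol phosphate when glucose is scarce, had 3 counts over the FMK libraries, with 20.8, 43.2 and 10.6 CPM in OPH and 41.2, 30.3 and 2.18 CPM in DMSO libraries, and fell in FMK (adjusted p = 0.0401), with a DMSO to FMK ratio of pooled counts of 144 (exact 95% interval 49.0 to 701). Adrb3, the beta-adrenergic receptor of adipocytes, had 0.653, 0.310 and 0 CPM in FMK, 6.13, 8.67 and 2.53 CPM in OPH and 14.5, 12.6 and 0.145 CPM in DMSO libraries, and its adjusted p for FMK against DMSO was 0.0822 without the block and 2.14e-04 with it. Ffar2, a receptor for short-chain fatty acids that leukocytes also carry, had 0, 0 and 0.920 CPM in FMK, 20.2, 14.5 and 6.80 CPM in OPH and 21.6, 13.9 and 6.54 CPM in DMSO libraries. Both FMK libraries at 0 and the single one above it lay below every other library, and Ffar2 fell in FMK (-5.55 ± 0.99, adjusted p = 0.00544). Mrap, an accessory protein of melanocortin receptors, had 2 counts over the FMK libraries, 301 over the OPH libraries and 170 over the DMSO libraries, and fell in FMK (adjusted p = 0.0309), with a DMSO to FMK ratio of 78.5 (exact 95% interval 21.4 to 653). Car3, a carbonic anhydrase abundant in white fat and muscle, had 2.29, 7.29 and 2.57 CPM in FMK, 169, 422 and 68.2 CPM in OPH and 506, 648 and 57.8 CPM in DMSO libraries, and fell in FMK (-6.60 ± 1.40, adjusted p = 0.0203). Car3 was lowest in library 3 of the OPH and DMSO groups, as were most of the 36 genes tested. Skeletal muscle markers were highest there, and their part in the Car3 level was not tested. Nat8l, which makes N-acetylaspartate, and Retsat, which saturates retinol, also fell in FMK, with log2 fold changes of -4.74 for Nat8l (adjusted p = 0.0189) and -0.54 for Retsat (adjusted p = 0.0465).

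**Figure D4:**
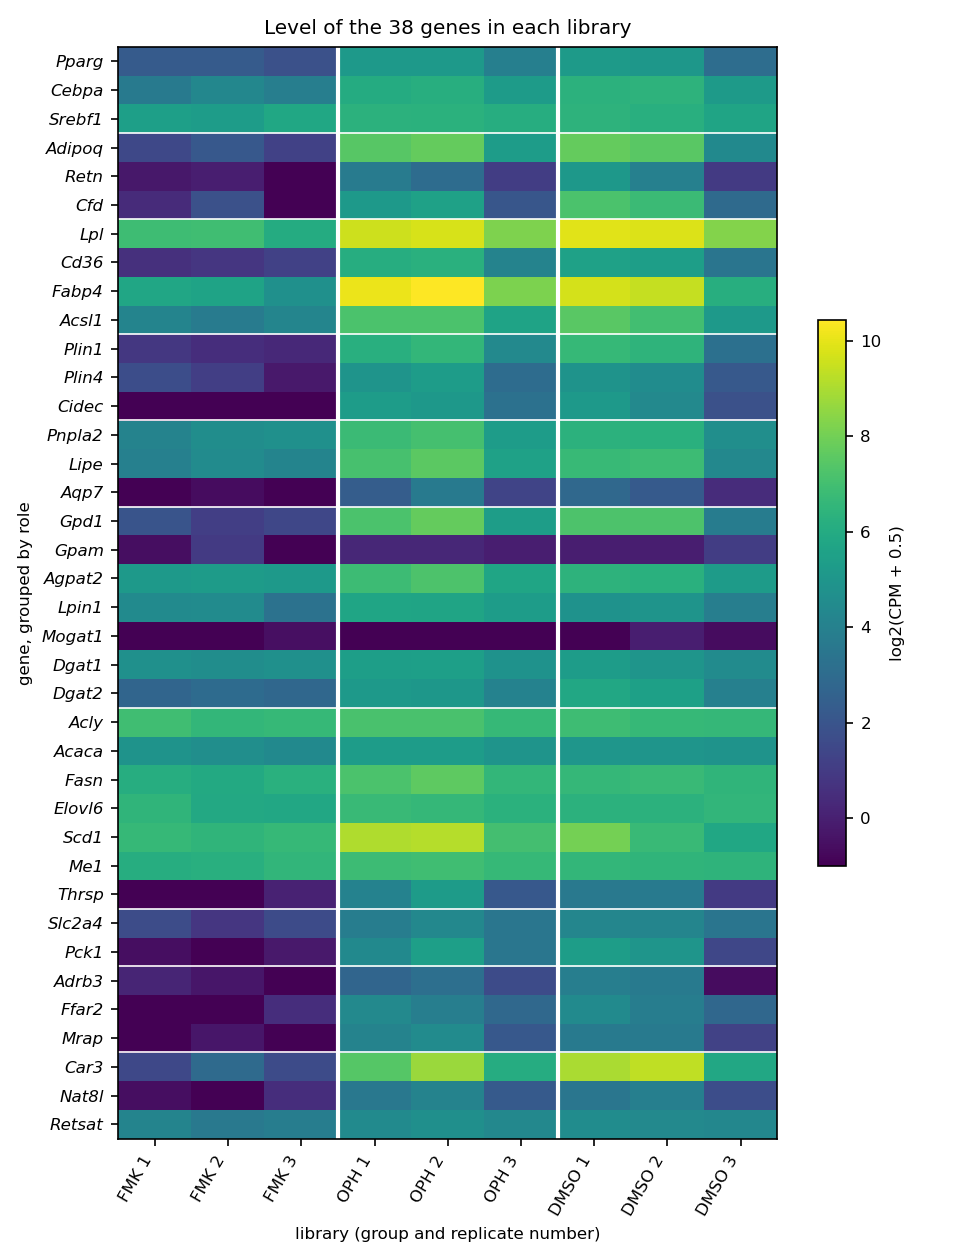
Level of the 38 genes (rows, grouped by role) in the 9 libraries (columns, FMK, OPH and DMSO), drawn as colour on the log2(CPM + 0.5) scale. Dark cells are low: the 3 FMK columns are darker than the columns of OPH 1, OPH 2, DMSO 1 and DMSO 2 for most genes outside fatty acid synthesis, and OPH 3 and DMSO 3 are intermediate for many.

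The level of these genes also differed by replicate number. In DMSO, library 3 was the lowest of the 3 libraries for 35 of the 36 genes tested, against 36.2% of all genes, and in OPH for 36 of 36, against 33.6%. In FMK it was the lowest for 12 of 36, against 37.1%. The median ratio of library 3 to the mean of libraries 1 and 2 was 0.910 in FMK, 0.332 in OPH and 0.230 in DMSO. The fit with the number as a block assumes an equal shift in every group. These ratios depart from that for FMK, which limits the blocked calls of these genes against FMK. Skeletal muscle markers ran the other way in every group, with 126, 248 and 492 CPM in FMK libraries 1, 2 and 3, 251, 292 and 679 CPM in OPH and 234, 331 and 800.4 CPM in DMSO libraries, and their part in the result was not tested. Of 17 muscle markers tested, 0 were lower and 0 higher in FMK than in DMSO or in OPH than in DMSO, and with the block 8 were lower and 0 higher in FMK and 2 lower and 2 higher in OPH. Of all genes, 13.4% were lower and 13.4% higher in FMK with the block, and 11.3% and 11.6% in OPH. Within numbers 1, 2 and 3, the mean log2 difference over the 36 genes tested was -3.23, -2.99 and -1.32 for FMK minus DMSO. For OPH minus DMSO it was -0.10, 0.39 and 0.65, and for OPH minus FMK it was 3.13, 3.39 and 1.97. FMK was thus below DMSO and below OPH in every number, by least in number 3, whereas OPH minus DMSO changed sign between numbers. In libraries 1 and 2 alone, 29 of 36 genes were lower and 0 higher in FMK than in DMSO (9.62% and 9.64% of all genes in that fit), 3 were lower (Retn, Cfd and Dgat2) and 8 higher in OPH than in DMSO (6.88% and 7.07%), and 0 were lower and 31 higher in OPH than in FMK (5.08% and 4.8%).

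For 20 genes a relative of the same family or function was also tested in FMK against DMSO. The estimate of the fat gene was below that of its relative in 18 of 20 pairs, with medians of -2.77 and 0.05, and the exceptions were Me1 with Me2 and Pnpla2 with Pnpla3. Members and relatives were chosen with earlier results of these data known, so these counts only describe the chosen pairs. Slc2a1, the widely expressed glucose transporter GLUT1, had 156, 179 and 157 CPM in FMK, 118, 107 and 96.0 CPM in OPH and 71.1, 56.5 and 64.4 CPM in DMSO libraries, and rose with both inhibitors (FMK 1.36 ± 0.11, adjusted p = 5.36e-08, and OPH 0.74 ± 0.11, adjusted p = 1.12e-04). Groups did not overlap for Slc2a1, with FMK highest and DMSO lowest, while GLUT4 was lowest in FMK. Cebpb, an early factor of adipogenesis, likewise rose with FMK (1.11 ± 0.10, adjusted p = 2.59e-07) and with OPH (0.91 ± 0.10, adjusted p = 4.73e-06). Acsl4, which prefers arachidonate, and Srebf2, the regulator of cholesterol synthesis, rose with FMK by 0.98 and 0.62 on the log2 scale (adjusted p = 9.46e-05 and 5.54e-04). Plin2, the droplet coat of many cell types, was at -0.04 ± 0.16 (95% interval -0.38 to 0.31), Ppard at 0.04 ± 0.14 (-0.25 to 0.34) and Pck2 at 0.05 ± 0.09 (-0.14 to 0.24). Pnpla3, a lipid droplet hydrolase related to ATGL, fell in FMK by 3.01 (adjusted p = 0.0333, called in 2 of the 6 fits that left out 1 library). Gpd1l, the relative of Gpd1, fell by 0.65 on the log2 scale (adjusted p = 0.0312). Cidea, the relative of Cidec, was at -5.92 and Fabp5, the relative of Fabp4, at -1.06. These 2 did not pass without the block (adjusted p = 0.0565 and 0.0879) but did with it (8.33e-06 and 0.0118). With the block, 13 of the 20 fat genes and 4 of the 20 relatives were lower in FMK than in DMSO, and 5 relatives were higher. Of all genes, 13.4% were lower and 13.4% higher in that fit.

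**Figure D5:**
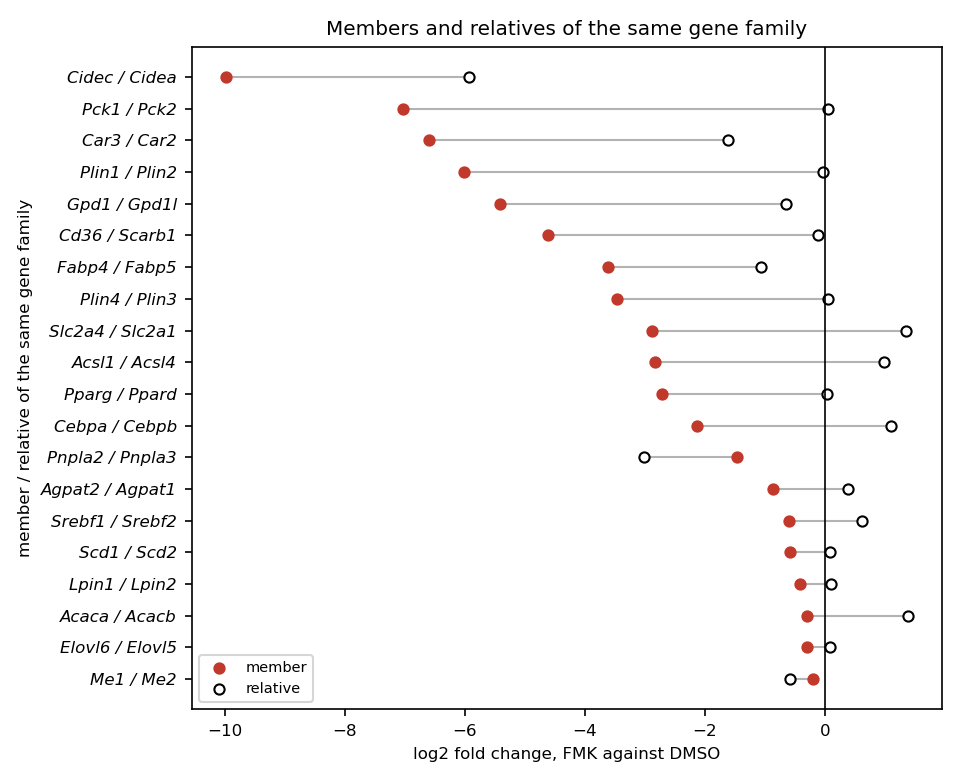
Log2 fold change for FMK against DMSO without the block (horizontal axis) of 20 fat genes in red and of a relative of each as open circles (vertical axis, pairs). The fat gene lies to the left of its relative in 18 of 20 pairs, and the Cidec estimate rests on 0 counts in FMK. Pairs were chosen with earlier results of these data known.

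Other lists of the same biology, brown fat genes included, were counted in the same way. Of all genes, 10.1% were lower and 10.4% higher in FMK than in DMSO, and 13.4% and 13.4% with the block. In OPH against DMSO the shares were 8.11% and 8.61%, and 11.3% and 11.6% with the block. A list count near these shares is no more than that of genes in general. Of 21 regulators of adipogenesis tested, 5 were lower and 4 higher in FMK than in DMSO (median log2 fold change 0.04), and 0 were lower and 4 higher in OPH. With the block 6 were lower and 5 higher in FMK, and 0 lower and 6 higher in OPH. Klf5, which acts early in adipogenesis, rose with FMK (1.33 ± 0.14, adjusted p = 2.13e-06) and with OPH (0.83 ± 0.14, adjusted p = 5.66e-04). Zfp423, a factor that commits progenitors to the fat lineage, fell with FMK (12.9, 18.4 and 14.7 CPM, against 33.8, 33.7 and 36.3 CPM in DMSO libraries, adjusted p = 8.72e-05). For OPH its interval against DMSO was -0.21 to 0.47. Of 9 adipocyte progenitor genes tested, 2 were lower and 2 higher in FMK than in DMSO (median 0.12), and 2 were lower and 3 higher with the block. Ly6a, the progenitor surface antigen Sca-1, which also responds to interferon, stood at 1156, 1191 and 899 CPM in FMK, 355, 390.2 and 345 CPM in OPH and 48.2, 36.9 and 39.2 CPM in DMSO libraries, and rose with FMK (4.71 ± 0.13, adjusted p = 3.16e-12) and with OPH (3.13 ± 0.12, adjusted p = 1.89e-10). Pdgfra, the receptor that marks mesenchymal progenitors, rose with FMK (0.75 ± 0.13, adjusted p = 6.54e-04).

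Of 14 genes of lipolysis and insulin signalling, 6 were lower and 0 higher in FMK than in DMSO (median -0.44), while 1 was lower and 1 higher in OPH, and 2 lower and 1 higher in OPH with the block. Hcar1, the lactate receptor of adipocytes, had 1 count over the FMK libraries, 67 over the OPH libraries and 59 over the DMSO libraries (FMK against DMSO adjusted p = 0.00200). Irs1, an insulin receptor substrate, and Abhd5, the coactivator of ATGL, fell in FMK by 0.67 and 0.49 on the log2 scale (adjusted p = 3.07e-04 and 0.00846). Of 18 other genes of lipid uptake and triglyceride assembly, 1 was lower and 3 higher in FMK (median 0.03), and 4 were lower and 3 higher with the block. Of 16 other genes of fatty acid synthesis, 2 were lower and 1 higher in FMK (median 0.07), and 2 were lower and 2 higher with the block. Of 13 genes of fatty acid oxidation, 2 were lower and 1 higher (median -0.29), and 5 lower and 1 higher with the block, with Hadhb, a subunit of the trifunctional protein of beta-oxidation, among the lower (-0.73 ± 0.17, adjusted p = 0.00579). Of 16 other adipocyte genes tested, 2 were lower and 0 higher in FMK (median -0.69), Bscl2, which encodes the droplet biogenesis protein seipin (-0.67 ± 0.15, adjusted p = 0.00309), and Acvr1c, a receptor of the activin family (-5.69 ± 1.55, adjusted p = 0.0455, called in 1 of the 6 fits that left out 1 library), and 8 were lower with the block. Of 7 partners and cofactors of PPAR gamma, 1 was lower in FMK (median -0.02) and 2 with the block, the 1 being its dimer partner Rxra (-0.45 ± 0.11, adjusted p = 0.00527).

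Brown fat genes, which serve heat production, were measured beside those of white fat. Of 8 tested, 0 were lower and 1 higher in FMK than in DMSO (median -0.22), and 0 were lower and 2 higher in OPH (median 0.91). With the block 2 were lower and 1 higher in FMK, and 0 lower and 3 higher in OPH. Their sums were 45.6, 47.3 and 43.4 CPM in FMK, 122, 189.5 and 76.1 CPM in OPH and 75.8, 90.2 and 32.7 CPM in DMSO libraries, so OPH exceeded DMSO in each number. Ucp1, the uncoupling protein that defines brown fat, had 0 counts over the FMK libraries, 54 over the OPH libraries, in OPH 1 and 2 alone, and 3 over the DMSO libraries, and did not pass the filter on low counts. Dio2 rose with FMK (1.21 ± 0.32, adjusted p = 0.0120). Cidea and Cox7a1 were lower in every FMK library than in every DMSO library. Cidea had 1 count in FMK, 166 in OPH and 87 in DMSO (FMK against DMSO adjusted p = 0.0565, and 8.33e-06 with the block). Cox7a1 averaged 2.13 CPM in FMK, 28.1 CPM in OPH and 13.9 CPM in DMSO (adjusted p = 0.112, and 0.0926 with the block).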

How the data were processed

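RNA was measured with a 3′ end kit (QuantSeq FWD), per the labels' protocols. The authors deposited raw counts per gene for 9 libraries, which are whole numbers. Tools named in the submitters' processing notes are STAR, cutadapt, DESeq2, FastQC and MultiQC, with the mm10 build. How reads were counted, with which annotation and whether by strand, is not given in the sources used here. By GENCODE M21, 16 of the 38 genes overlap another annotated gene, 15 on the opposite strand, so reads of these could have been shared. The authors' own comparison columns were not used. In all, 99 spike-in rows with 1 count were left out.

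The test was edgeR 4.0.16 (R 4.3.3): filterByExpr, TMM scaling, a robust quasi-likelihood fit with 1 coefficient per group over all 9 libraries, and two-sided tests with Benjamini-Hochberg adjustment over 13255 genes at 0.05. These hold at least 99.74% of the counts of each library. CPM values use the TMM-scaled library sizes, errors are SD of 3 libraries, and fold changes carry the fit's SE. Figures use CPM + 0.5 on a log2 scale. A floor is 3 counts over a group, and ratio intervals (exact, 95%) cover counting error only. The procedure was tested on simulated data with the same dispersion for every gene and no shift by replicate number, so the uneven spread of the members was not covered. Alternatives used DESeq2 1.42.0 and limma 3.58.1 among others. P-values set each group difference against the spread between these libraries.

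Replicate numbers come from the labels, which do not say what they share. Deviations from group means of same-numbered libraries correlated across genes at 0.117 to 0.256 for FMK with DMSO, 0.160 to 0.344 for OPH with DMSO and 0.102 to 0.254 for OPH with FMK. Each exceeded 0.1, so the numbers were taken to pair the libraries, on the data alone. The limit of 0.1 was not tested against libraries of unlike number. The fit with the number as a block is given where it changes a call of a member or a list's printed count. That fit assumes that a number shifts a gene equally in every group. For the members, the median ratio of library 3 to the mean of the other libraries of its group was 0.910 in FMK, 0.332 in OPH and 0.230 in DMSO. Blocked calls against FMK therefore rest on an assumption from which the members depart. The members, lists, relatives and motifs were chosen with earlier results of these data known. All 38 members are named. From each other list those named come from the 3 with the smallest p in FMK against DMSO, and Ucp1 and Lep as defining markers.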

Additional observations from a re-analysis of the deposited data

Results flagged for a closer look

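Between the inhibitors, at equal dose and time, 12 of the 36 genes differed by the direct test of OPH against FMK (adjusted p under 0.05, edgeR's quasi-likelihood test), all higher in OPH and each above the same-numbered FMK library in 3 of 3 numbers. Among these 12 genes the largest log2 differences were 6.80 for Mrap (adjusted p = 0.0330), 6.42 for Aqp7 (0.00753), 5.54 for Ffar2 (0.0132), 5.34 for Cd36 (0.0302) and 4.94 for Nat8l (0.0303). Over the FMK libraries Mrap had 2 counts and Aqp7 had 1, and the OPH to FMK ratio of pooled counts was 133 (exact 95% interval 36.5 to 1104) for Mrap and 118 (exact 95% interval 20.7 to 4679.9) for Aqp7. Ffar2 and Nat8l were at 0 in at least 1 FMK library. Slc2a4 differed by 2.81 (8.49e-05) and Cebpa by 1.94 (0.0308). Smaller differences were found for Fasn at 1.08 (0.0301), Srebf1 at 0.73 (0.0210), Retsat at 0.64 (0.0372), Acaca at 0.56 (0.0311) and Me1 at 0.52 (0.00737). With the replicate number as a block 34 genes passed, among them Cidec, which had no count in FMK, and Pck1 at 7.20 (adjusted p = 0.0268), which had 3 counts there. Macrophage markers also differed between the inhibitors in this direction, with 15 of 20 higher in OPH and 19 of 20 with the block. The shares of all genes were 4.2% and 7.78%, and the part of these markers in the result was not tested.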

How the results depend on the processing

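Of the 36 genes, 18 were lower in FMK than in DMSO, against 3 with limma-voom, 11 with only the 2 groups in the fit and 29 in libraries numbered 1 and 2, and 3 to 23 when 1 library was left out. OPH against DMSO called 0 lower, against 2 with the replicate block and 3 in libraries numbered 1 and 2, and 0 to 0 without single libraries. It called 0 higher, against 4 with no low-count filter, 2 with DESeq2, 2 with only the 2 groups, 5 with the block, 8 in libraries numbered 1 and 2, and 0 to 3 without single libraries. OPH against FMK called 12 higher, against 21 with library size alone, 33 with DESeq2, 6 with limma-voom, 21 with only the 2 groups, 34 with the block, 31 in libraries numbered 1 and 2, and 2 to 18 without single libraries. Over all genes, calls numbered 2724 (1979 to 2512 without single libraries) for FMK against DMSO, 2216 (1487 to 1779) for OPH against DMSO and 1175 (571 to 1050, and 2139 with the block) for OPH against FMK. The block changed no call of the 36 genes beyond those given with it in the results. Scaling by library size alone put the median of all genes at -0.11 (log2) for FMK against DMSO and 0.12 for OPH against FMK.

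Signs turned only for values past the threshold in neither setting, and the cause was not tested. Acly turned to -0.0965 with library size alone, -0.0045 with the stricter filter, -0.00012 with limma-voom and -0.012 in libraries numbered 1 and 2 in FMK against DMSO. In OPH against DMSO the values turned in libraries numbered 1 and 2 for Adipoq (-0.012), Acsl1 (-0.065) and Pck1 (-0.16), and for Acsl1 with the stricter filter (-0.0063) and DESeq2 (-0.0027). With limma-voom they turned for Plin1 (0.38), Adrb3 (0.76) and Ffar2 (0.062), with the block for Plin1 (0.13) and Ffar2 (0.0023), and for Ffar2 with library size alone (0.00078) and no low-count filter (0.0043). Fits that left out 1 library spanned 0 for Acly -0.11 to 0.088 and Scd1 -0.96 to 0.25 in FMK against DMSO, and for Pparg -0.30 to 0.49, Cebpa -0.48 to 0.034, Srebf1 -0.056 to 0.29, Adipoq -0.45 to 0.50, Lpl -0.57 to 0.13, Acsl1 -0.42 to 0.52, Plin1 -0.56 to 0.41, Cidec -0.026 to 1.24, Aqp7 -0.20 to 1.35, Gpd1 -0.18 to 0.77, Slc2a4 -0.34 to 0.11, Pck1 -0.63 to 0.63, Ffar2 -0.39 to 0.45, Nat8l -0.27 to 0.68 and Retsat -0.0052 to 0.18 in OPH against DMSO. Genes with few counts in FMK have folds limited by depth.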

Other observations

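Ppargc1a, the coactivator that drives mitochondrial biogenesis and belongs to the brown fat list, was chosen here after its values were seen. It had 5.39, 7.75 and 3.13 CPM in FMK libraries, 34.4, 32.7 and 24.2 CPM in OPH libraries and 6.22, 5.32 and 3.78 CPM in DMSO libraries. The OPH libraries stood above all others while the FMK and DMSO ranges overlapped (OPH against DMSO 2.58 ± 0.28, adjusted p = 4.13e-06, edgeR's quasi-likelihood test, higher in 3 of 3 numbers). Acacb, the acetyl-CoA carboxylase tied to fatty acid oxidation and the relative of Acaca, had 5.23, 3.10 and 2.57 CPM in FMK, 7.99, 8.96 and 3.01 CPM in OPH and 0.778, 1.61 and 1.74 CPM in DMSO libraries. It was higher in OPH than in DMSO (2.26 ± 0.51, adjusted p = 0.00479).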
